A study of Homo sapiens with 6 samples.

Results

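The 10 genes described here encode enzymes that hydroxylate and cross-link collagen, and were chosen by gene symbol: the prolyl 4-hydroxylase subunits P4HA1, P4HA2, P4HA3 and P4HB, the lysyl hydroxylases PLOD1, PLOD2 and PLOD3, and the lysyl oxidases LOX, LOXL2 and LOXL4. The set leaves out the lysyl oxidases LOXL1 and LOXL3 and the prolyl 3-hydroxylases. All 10 were found among the 17631 genes with a value in each library. The 6 libraries came from MDA-MB-231, an established line of human triple-negative breast cancer, with 3 libraries from cells given vehicle and 3 from cells given 30 µM PDBAG1, both for 24 h in medium with serum. PDBAG1 is a synthetic peptide derived from the metabolic enzyme GPD1 and joined to a cell-penetrating sequence, and the study describes C1QBP, a mitochondrial protein, as its target. The labels do not say what the vehicle was or whether the 3 libraries of a group came from separate cultures, so the p-values measure the spread between these libraries, which may be technical, and a single cell line was used. The comparison asks how this enzyme set differed between peptide-treated and vehicle-treated cells. In every library the genes VIM and CD44, which mark mesenchymal breast cancer lines, were abundant, at a VIM level of 4174 TPM or more (TPM, a length-corrected share of the library), while of the luminal and hormone receptor genes PGR and CDH1 were at 0.84 TPM or less, ESR1, GATA3 and EPCAM at 1.96 to 5.78 TPM and ERBB2 at 23.6 to 25.4 TPM. The labels also call the source breast cancer tissue, and of the fibroblast genes LUM, PDGFRA, FAP, COL1A2 and COL3A1 were at 0.09 TPM or less, PDGFRB at 1.62 to 2.51 TPM and COL1A1 at 3.89 to 4.92 TPM.

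Collagen is modified while it is being made. In the endoplasmic reticulum the prolyl 4-hydroxylases turn prolines into 4-hydroxyproline, which keeps the triple helix stable at body temperature. Each enzyme is a tetramer of alpha subunits, which carry the active site and are encoded by P4HA1, P4HA2 or P4HA3, and of beta subunits encoded by P4HB, which is also protein disulfide isomerase. The lysyl hydroxylases hydroxylate lysines, and both kinds of hydroxylase need oxygen, iron, ascorbate and 2-oxoglutarate. Outside the cell, the copper-dependent lysyl oxidases convert lysines and hydroxylysines to aldehydes that react to form cross-links. Several of these genes, P4HA1, P4HA2, PLOD2 and LOX among them, are known targets of hypoxia-inducible factor (HIF), which binds a short core motif in DNA, and LOX is known for its part in the spread of breast tumours.

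Promoter sequences are shown for the 3 genes with the largest rises and for PLOD3, the gene with the smallest difference, to place the letters of the HIF core motif beside the expression values. RefSeq promoter windows on GRCh38.p14 were used for 8 of the 10 genes. LOXL2 and P4HA3 are the others. Each line gives the 250 bases before the RefSeq start, on the gene's own strand, and the starts of these 4 genes lie inside the bounds of the corresponding GENCODE genes. Capitals mark ACGTG or GCGTG on either strand, the opposite strand reading CACGT or CACGC, and overlapping matches count as 1, so that the E-box CACGTG would be counted once.
P4HA1 (chr10:73096867-73097116, minus strand): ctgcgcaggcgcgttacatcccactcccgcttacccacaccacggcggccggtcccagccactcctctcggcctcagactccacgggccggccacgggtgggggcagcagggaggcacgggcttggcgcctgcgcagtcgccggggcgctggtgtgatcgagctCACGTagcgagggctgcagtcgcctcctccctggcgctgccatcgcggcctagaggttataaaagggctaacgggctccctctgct
LOX (chr5:122078260-122078509, minus strand): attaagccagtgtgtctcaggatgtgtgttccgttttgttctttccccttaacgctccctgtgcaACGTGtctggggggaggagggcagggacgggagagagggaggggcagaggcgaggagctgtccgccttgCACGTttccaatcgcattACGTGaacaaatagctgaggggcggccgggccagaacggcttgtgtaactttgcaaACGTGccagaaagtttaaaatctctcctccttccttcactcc
P4HA2 (chr5:132227092-132227341, minus strand): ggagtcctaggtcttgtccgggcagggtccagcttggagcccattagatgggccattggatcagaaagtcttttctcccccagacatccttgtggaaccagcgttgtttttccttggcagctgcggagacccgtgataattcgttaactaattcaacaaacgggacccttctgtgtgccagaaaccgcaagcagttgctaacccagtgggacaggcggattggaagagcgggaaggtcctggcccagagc
PLOD3 (chr7:101217582-101217831, minus strand): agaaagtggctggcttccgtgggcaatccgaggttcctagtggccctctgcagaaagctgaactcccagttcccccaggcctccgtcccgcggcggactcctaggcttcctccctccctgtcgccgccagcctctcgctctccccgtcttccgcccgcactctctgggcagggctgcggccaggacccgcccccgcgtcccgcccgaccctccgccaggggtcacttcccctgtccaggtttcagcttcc

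The RefSeq windows at hand gave 3 starts for LOX and 1 for each of the others, and the most upstream of these was used. This LOX window held 4 matches, at 185, 116, 98 and 42 bases before the start, and the windows of the other LOX starts, 1036 and 1085 bases downstream, held 2 each. The P4HA1 window held 1, at 86 bases before the start, and the P4HA2 and PLOD3 windows held none of these letters. Among the windows not printed, PLOD2 had 3 matches, PLOD1 had 2, P4HB had 1 and LOXL4 had none. Such matches were common, since 54.8% of the 14832 windows of the genes tested and 43.2% of all 35116 windows held at least 1, and 23.1% and 16.2% held 2 or more. Matches therefore stood in 5 of the 8 windows, and P4HA2, with one of the largest rises, had none in its window. That window ends at 132227341, while the GENCODE gene P4HA2, on the minus strand, reaches upstream to 132295315. Sequence before any start further upstream was not searched, so the absence holds for this window only.

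Of the 10 genes, 9 reached 1 TPM in 3 libraries or more and were tested with limma on log2(TPM + 1) within the fit of 12582 genes. With PDBAG1, 8 of the 9 rose and none fell, at a Benjamini-Hochberg adjusted p under 0.05 over all genes tested. In the same direction 21.7% of all tested genes passed, and 15.9% passed as lower, so that 57.8% of calls over all genes were higher, against 47.2% under median-of-ratios scaling and 46.7% under quantile normalization. At a fold change of at least 1.5 as well, 3 of the 9 rose, P4HA1, LOX and P4HA2, against 2.86% of all tested genes. The PDBAG1 libraries lay above every vehicle library in 8 of the 9, as they did in 27.2% of all tested genes. The median log2 fold change of the 9 genes was 0.48, from 0.08 for PLOD3 to 1.08 for P4HA1, beside a median of 0.03 over all tested genes. Because the genes were chosen with earlier results of these data known, these counts describe the set. Outside it, the lysyl oxidase LOXL3 and the prolyl 3-hydroxylase P3H2 fell, and LOXL1, P3H1 and P3H3 did not pass the test. Fold changes on the log2(TPM + 1) scale understate the change in TPM, little for abundant genes and more for low ones, so that P4HA3, at 0.18 on this scale without the filter on low values, had a ratio of mean TPM of 1.55. TPM keeps no record of depth, and a change in TPM is a change in a gene's share of a bulk library, in which fewer cells and less RNA per cell cannot be told apart.

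**Figure D1:**
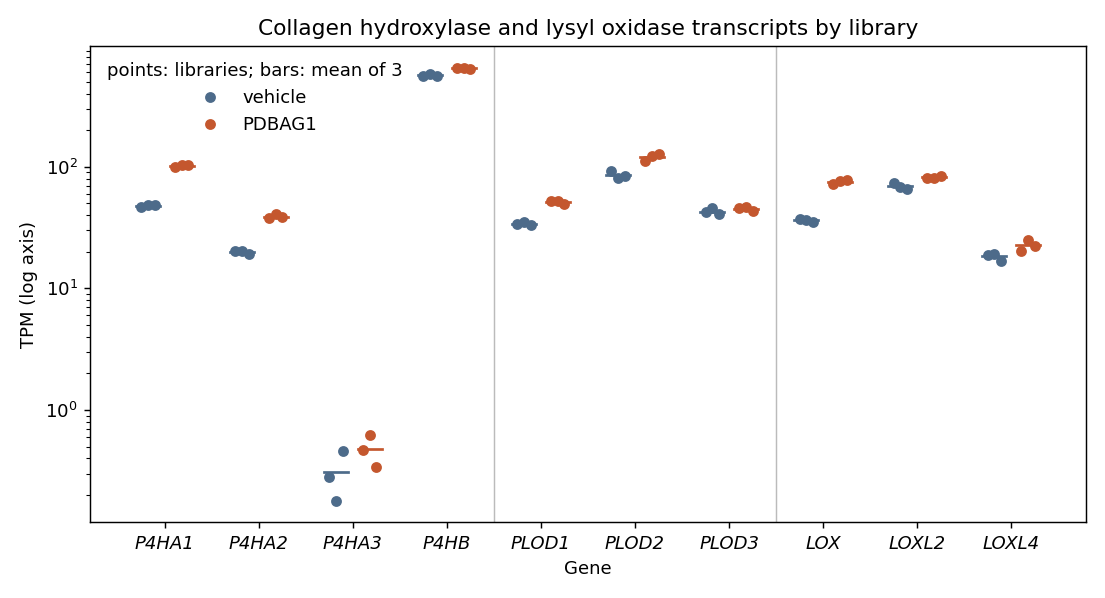
TPM (log axis) of the 10 genes, grouped from left to right as prolyl 4-hydroxylase, lysyl hydroxylase and lysyl oxidase genes, with 1 point per library (3 vehicle, 3 PDBAG1) and a bar at the mean of each group. The groups are widest apart for P4HA1, P4HA2 and LOX, overlap for PLOD3 and P4HA3, and P4HB lies above all others at 559 to 654 TPM.

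Of the catalytic alpha subunits of prolyl 4-hydroxylase, P4HA1 and P4HA2 rose, and P4HA3 was too low to test. P4HA1, which encodes the main alpha subunit of most cells (chromosome 10, 73007217 to 73096974, GRCh38, GENCODE v44), was at 46.3, 48.3 and 48.9 TPM in the vehicle libraries and at 98.6, 104 and 103 TPM in the PDBAG1 libraries. The lowest PDBAG1 library was more than 2 times the highest vehicle library. The mean rose from 47.8 ± 1.35 to 102 ± 2.86 TPM (SD, n = 3 per group), or by 1.08 on the log2 scale (SE 0.05; adjusted p = 1.46e-09 in limma), which ranked 56 from the top of the 12582 genes. P4HA2, the second alpha subunit (chromosome 5, 132190147 to 132295315), was at 20.2, 20.2 and 19.2 TPM in vehicle cells and at 37.7, 40.5 and 38.4 TPM with PDBAG1. The groups were again far apart, with means of 19.9 ± 0.549 and 38.9 ± 1.43 TPM (SD, n = 3 per group) and a log2 difference of 0.94 (SE 0.06; adjusted p = 5.09e-08 in limma). P4HA2 shares 548 exonic bases with the antisense gene P4HA2-AS1, and since no strand setting is given, reads there could not be told apart.

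P4HA3, the third alpha subunit (chromosome 11, 74235801 to 74311640), was near the limit of expression, at 0.28, 0.18 and 0.46 TPM in the vehicle libraries and at 0.47, 0.62 and 0.34 TPM in those given PDBAG1. The groups overlapped and the gene did not reach the level needed for testing. Without the filter on low values its log2 fold change was 0.18 (95% interval -0.04 to 0.40, limma adjusted p = 0.237).

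P4HB, the beta subunit and disulfide isomerase (chromosome 17, 81843159 to 81860856), was the most abundant of the 10 genes and moved far less than its partners. Its vehicle libraries were at 559, 579 and 560 TPM and its PDBAG1 libraries at 650, 654 and 633 TPM. These ranges did not overlap, and the mean rose from 566 ± 11.3 to 645 ± 11.1 TPM (SD, n = 3 per group), or by 0.19 on the log2 scale (SE 0.03; adjusted p = 0.000663 in limma). P4HB shares 529 exonic bases with an lncRNA on the opposite strand. Shorter exonic overlaps were found for 6 more of the 10 genes, among them 166 bases of P4HA3 with PPME1, 138 of LOX with SRFBP1 and 102 of PLOD3 with ZNHIT1, all coding genes on the opposite strand, and 120 of LOXL2 with the coding gene ENTPD4 on the same strand. PLOD1 and PLOD2 had none.

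The balance between the subunit transcripts was set out within each library. TPM is per length, so levels of different genes can be set side by side within a library. The summed TPM of P4HA1, P4HA2 and P4HA3 was 66.7, 68.6 and 68.5 with vehicle and 137, 145 and 142 with PDBAG1. Per 100 P4HB transcripts this was 11.9, 11.9 and 12.2 alpha subunit transcripts with vehicle and 21.1, 22.2 and 22.4 with PDBAG1, so that the mean ratio was 1.82 times as high, with no overlap. Within the alpha subunits the make-up hardly moved, with P4HA1 at 70.3% ± 0.974 of the sum in vehicle cells and 72.1% ± 0.484 with PDBAG1 (SD, n = 3 per group). For each of these 2 quantities the two-sided exact permutation p was 0.1, the smallest that 3 libraries against 3 can give, and 0.125 when adjusted over the 15 sums, shares and ratios tested.

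**Figure D2:**
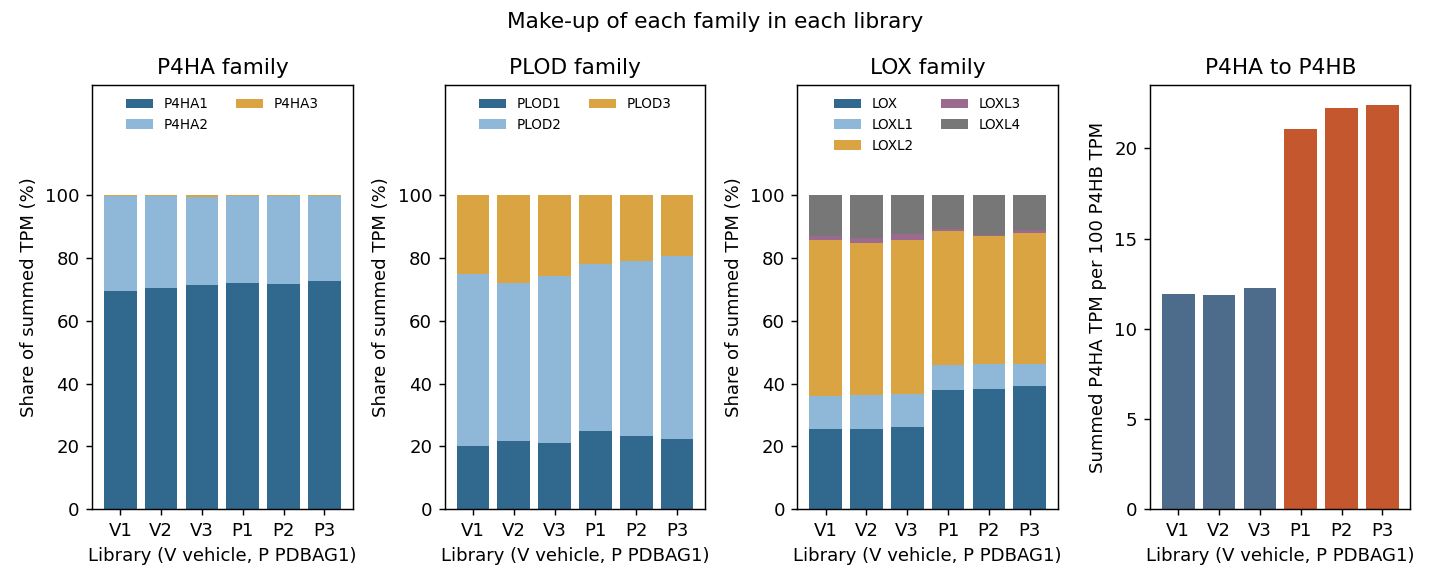
Stacked bars give the share (%) of each gene in the summed TPM of its family in each of the 6 libraries, and the right panel gives summed P4HA TPM per 100 P4HB TPM. LOX takes 25.4% to 26.1% of its family in the vehicle libraries and 37.8% to 39.1% in the PDBAG1 libraries, and alpha subunit transcripts per 100 P4HB go from at most 12.2 to at least 21.1.

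Among the lysyl hydroxylases, PLOD1 and PLOD2 rose and PLOD3 did not pass the test. PLOD1, which hydroxylates lysines in the helix (chromosome 1, 11934205 to 11975538), was at 33.9, 35.0 and 33.5 TPM in vehicle cells and 52.4, 51.9 and 49.3 TPM with PDBAG1. Its groups were clearly separate, with means of 34.1 ± 0.767 and 51.2 ± 1.67 TPM (SD, n = 3 per group) and a log2 difference of 0.57 (SE 0.05; adjusted p = 1.91e-06 in limma). This lay just under the limit of 1.5-fold on the log2(TPM + 1) scale, and the limit was passed without vehicle replicate 2 (log2 fold change 0.59) or without PDBAG1 replicate 3 (0.60).

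PLOD2, which hydroxylates lysines in the telopeptides at the ends of collagen (chromosome 3, 146035139 to 146163725), was the most abundant of the lysyl hydroxylases. Its vehicle libraries were at 92.9, 81.2 and 84.0 TPM and its PDBAG1 libraries at 111, 124 and 128 TPM. The groups did not overlap but spread more than those of PLOD1, and the mean rose from 86.0 ± 6.10 to 121 ± 8.80 TPM (SD, n = 3 per group), or by 0.48 on the log2 scale (SE 0.06; adjusted p = 3.85e-05 in limma).

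PLOD3, which also transfers glucose onto hydroxylysine that carries galactose (chromosome 7, 101205977 to 101218420), was at 42.3, 45.6 and 40.7 TPM in vehicle cells and 46.0, 46.8 and 43.1 TPM with PDBAG1. The groups overlapped, and the log2 fold change was 0.08 (95% interval -0.04 to 0.20, limma adjusted p = 0.300). The interval leaves room for a rise but not for one of the size of PLOD1 or PLOD2. The log2 fold change of PLOD1 exceeded that of PLOD3 by 0.49 (standard error 0.03) and that of PLOD2 exceeded it by 0.40 (standard error 0.12), with no overlap of the log2 ratios between groups in either pair. PLOD2 and PLOD1 differed by -0.09 (standard error 0.11), within the spread of the libraries.

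These pairs belong to 9 pairs of genes compared in this way, and the two-sided exact permutation p was 0.1, the smallest possible, for both pairs with PLOD3 (0.129 adjusted over the 9 pairs) and 0.5 for PLOD2 against PLOD1. As a share of summed PLOD transcripts, PLOD3 was at 26.3% ± 1.66 in vehicle cells and 20.9% ± 1.21 with PDBAG1 (SD, n = 3 per group), without overlap. The share of PLOD2 was 52.8% ± 2.39 and 55.5% ± 2.52 (SD, n = 3 per group), and these groups overlapped (exact permutation p = 0.3).

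Of the lysyl oxidases, LOX rose about as much as P4HA1, and LOXL2 and LOXL4 rose by much less. LOX (chromosome 5, 122063195 to 122078413) was at 37.2, 36.3 and 35.0 TPM in vehicle cells and 71.7, 76.1 and 78.3 TPM with PDBAG1. The groups were far apart, and the mean rose from 36.2 ± 1.09 to 75.4 ± 3.39 TPM (SD, n = 3 per group), or by 1.04 on the log2 scale (SE 0.05; adjusted p = 6.00e-09 in limma), which ranked 66 from the top of the 12582 genes.

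LOXL2, a lysyl oxidase with scavenger receptor domains that acts on basement membrane collagen (chromosome 8, 23296897 to 23425328), was the most abundant of the family. It was at 73.0, 68.8 and 65.5 TPM in vehicle cells and 81.0, 80.7 and 83.1 TPM with PDBAG1. The groups did not overlap, and the mean rose from 69.1 ± 3.76 to 81.6 ± 1.35 TPM (SD, n = 3 per group), or by 0.24 on the log2 scale (SE 0.05; adjusted p = 0.00206 in limma).

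LOXL4 (chromosome 10, 98247690 to 98268194) was at 19.0, 19.3 and 16.8 TPM in vehicle cells and 20.3, 25.1 and 22.4 TPM with PDBAG1. Its groups were only 0.98 TPM apart, and it rose from 18.4 ± 1.35 to 22.6 ± 2.43 TPM (SD, n = 3 per group), or by 0.28 on the log2 scale (SE 0.08; adjusted p = 0.0145 in limma). This call was the least firm of the 8. It was lost without vehicle replicate 3 (log2 fold change 0.22, limma adjusted p = 0.0785), without PDBAG1 replicate 2 (0.21, limma adjusted p = 0.0896) and without the filter on low values (limma adjusted p = 0.0503).

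The remaining lysyl oxidases were not among the 10 genes but complete the family. LOXL1, known for its role in elastic fibres, was at 14.9 ± 0.580 TPM in vehicle cells and 15.2 ± 0.666 TPM with PDBAG1 (SD, n = 3 per group), a log2 difference of 0.02 (95% interval -0.13 to 0.17; adjusted p = 0.835 in limma). LOXL3, near the expression limit, fell by 0.42 on the log2 scale, from 2.18 ± 0.236 to 1.41 ± 0.541 TPM (SD, n = 3 per group; limma adjusted p = 0.0433).

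The lysyl oxidase transcripts were also compared by their shares. LOX accounted for 25.4%, 25.6% and 26.1% of the summed TPM of the 5 family genes with vehicle and for 37.8%, 38.3% and 39.1% with PDBAG1. The share of LOXL2 was 49.1% ± 0.686 in vehicle cells and 41.6% ± 1.03 with PDBAG1 (SD, n = 3 per group), so that LOXL2 was the largest part in all 6 libraries. Neither share overlapped between groups (exact permutation p = 0.1 for each, adjusted p = 0.125). The log2 fold change of LOX exceeded that of LOXL2 by 0.80 (standard error 0.04), that of LOXL4 by 0.76 (standard error 0.08) and that of LOXL1 by 1.02 (standard error 0.06), without overlap of the ratios in any pair (exact permutation p = 0.1 for each, 0.129 adjusted over the 9 pairs). LOXL2 and LOXL4 differed by -0.05 (standard error 0.10, exact permutation p = 0.8).

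The summed TPM of each family was higher in every PDBAG1 library than in any vehicle library. The mean PLOD sum went from 163 ± 5.58 to 217 ± 6.99 TPM and the lysyl oxidase sum from 141 ± 6.28 to 196 ± 5.62 TPM (SD, n = 3 per group), 1.33 and 1.39 times, beside 2.08 times for the alpha subunits. Each of the 3 sums had the smallest possible exact permutation p of 0.1 (adjusted p = 0.125). The order of the genes by TPM changed as well. With vehicle it ran from P4HB through PLOD2, LOXL2, P4HA1, PLOD3, LOX, PLOD1 and P4HA2 to LOXL4 and P4HA3, and with PDBAG1 it ran from P4HB through PLOD2, P4HA1, LOXL2, LOX, PLOD1, PLOD3 and P4HA2 to LOXL4 and P4HA3. P4HA1 thus passed LOXL2, and LOX and PLOD1 passed PLOD3. Among neighbours in these orders, P4HA2 and LOXL4 with vehicle were the only pair whose libraries overlapped.

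**Figure D3:**
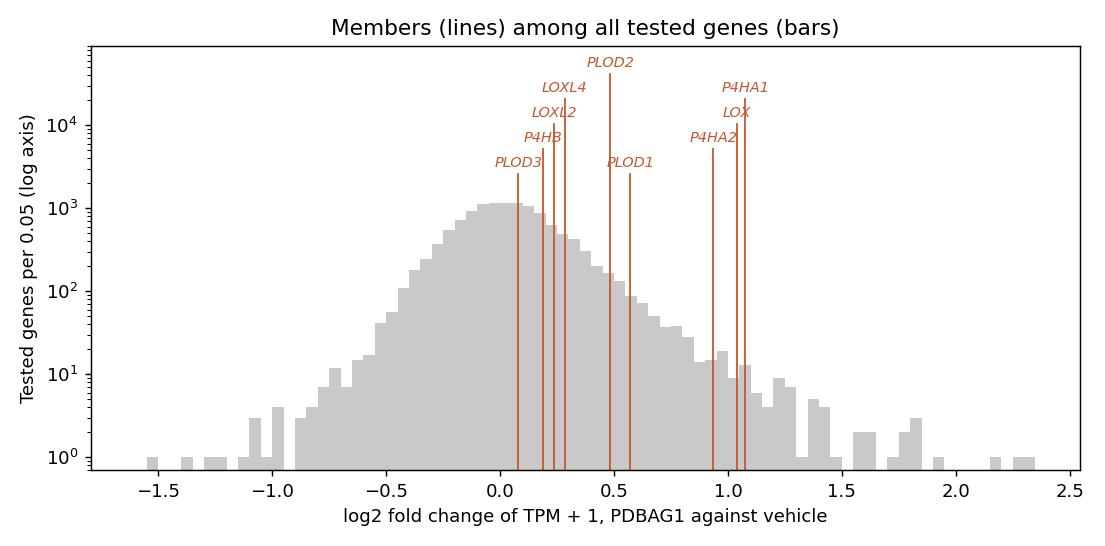
Grey bars count the 12582 tested genes by log2 fold change of TPM + 1 (PDBAG1 against vehicle, bins of 0.05, log count axis), and lines mark the 9 tested genes of the set. P4HA1, LOX and P4HA2 lie in the thin right tail at 0.94 to 1.08, PLOD1 and PLOD2 at its base, and PLOD3 in the body of the distribution.

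Collagen maturation involves further proteins, and most of their genes differed less. A list of 36 such genes held prolyl 3-hydroxylation, glycosylation, chaperone, export, propeptide removal and fibril assembly genes and the other lysyl oxidases. Of these 25 could be tested, 7 rose, 3 fell and 15 did not pass the test. The shares of 28.0% higher and 12% lower are near the 21.7% and 15.9% of all tested genes, and the median log2 fold change was 0.02. Under median-of-ratios scaling 5 rose and 4 fell, under quantile normalization 7 rose and 5 fell, and without vehicle replicate 3 4 rose and 2 fell. Without vehicle replicate 3 the share of all tested genes passing as higher was 16.2%, beside 21.7% in the main fit. It was 16.8% without vehicle replicate 2 and 16.9% without PDBAG1 replicate 2.

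FN1, which encodes fibronectin, on which collagen fibrils assemble, rose from 52.6 ± 3.03 to 93.3 ± 5.74 TPM (SD, n = 3 per group), or by 0.81 on the log2 scale (adjusted p = 1.89e-07 in limma) and was the gene of this list that passed 1.5-fold. The others that rose were BMP1, which cleaves procollagen and the LOX propeptide, with a log2 fold change of 0.37, the galactosyltransferase COLGALT1 with 0.32, the export genes SEC24D and MIA3 with 0.24 and 0.21, and the prolyl 3-hydroxylation complex genes CRTAP and PPIB with 0.13 and 0.12. P3H2, a prolyl 3-hydroxylase, fell by 0.45 on the log2 scale, from 41.2 ± 1.03 to 29.9 ± 0.730 TPM (SD, n = 3 per group; limma adjusted p = 2.33e-05). PREB and LOXL3 were the other falls. SERPINH1, the collagen chaperone HSP47, was at 115 ± 2.39 and 111 ± 5.66 TPM (SD, n = 3 per group), a log2 difference of -0.05 (95% interval -0.15 to 0.05), with overlapping groups.

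**Figure D4:**
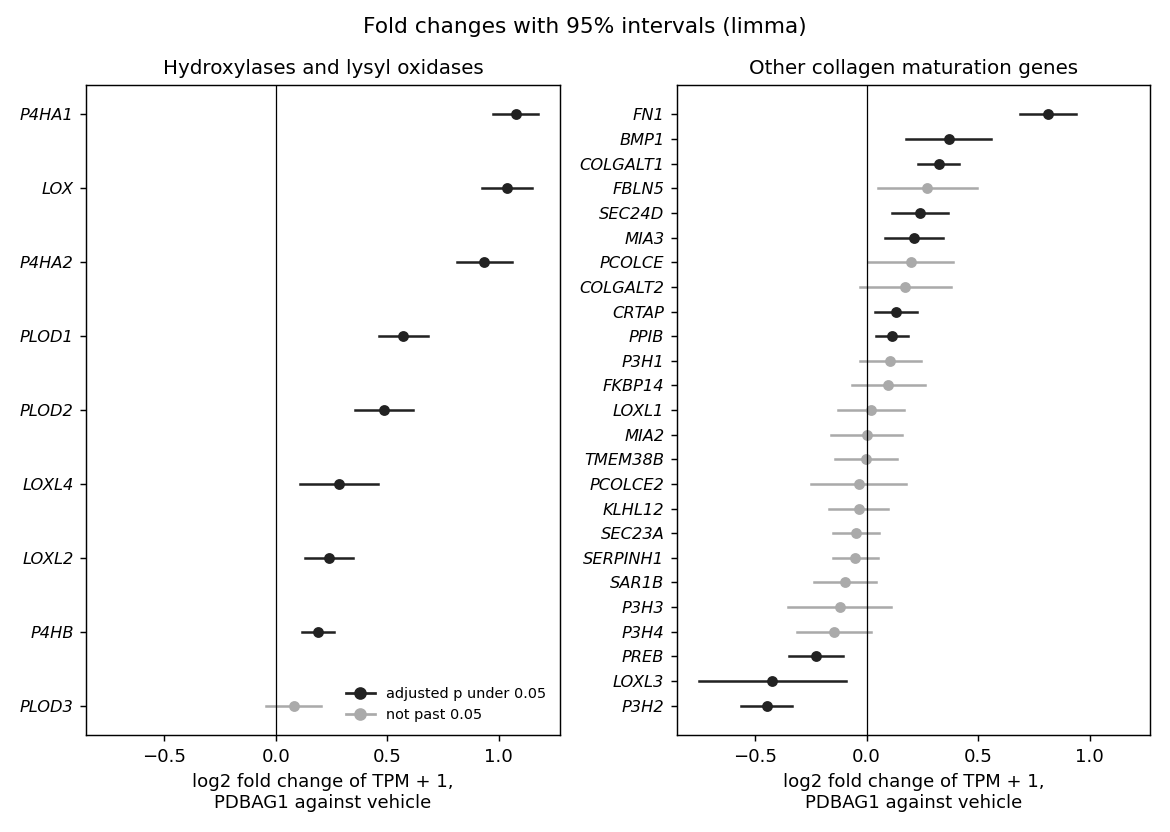
Log2 fold change of TPM + 1 (PDBAG1 against vehicle) with limma 95% intervals for the 9 tested hydroxylase and lysyl oxidase genes (left) and the 25 tested genes of the other collagen maturation list (right), dark where the adjusted p was under 0.05. On the left, all 9 estimates lie right of 0 and the interval of PLOD3 includes 0, and the list on the right is centred near 0, with FN1 at 0.81 and P3H2 at -0.45 as its ends.

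The collagens that these enzymes act on were mostly low in this line. Of 25 collagen and elastin genes, 15 could be tested, and the fibrillar chains COL1A2 and COL3A1 and the elastin gene ELN were below the filter. COL1A1 was at 3.95, 4.01 and 3.89 TPM in vehicle cells and 4.33, 4.92 and 4.68 TPM with PDBAG1, a difference that did not pass the test (log2 fold change 0.19, limma adjusted p = 0.121). COL13A1, a membrane collagen, was the most abundant, at 119 ± 5.82 and 127 ± 7.23 TPM (SD, n = 3 per group), a log2 difference of 0.08 (adjusted p = 0.222 in limma). Of the 15, 7 rose and 1 fell (46.7% and 6.67%, beside 21.7% and 15.9% of all tested genes). COL7A1, the anchoring fibril collagen, rose from 12.7 ± 1.44 to 24.0 ± 0.661 TPM (SD, n = 3 per group), or by 0.88 on the log2 scale (adjusted p = 1.60e-06 in limma), COL27A1 rose with a log2 fold change of 0.51, and COL8A1 fell by 0.45 on the log2 scale.

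A list of other enzymes that use oxygen and 2-oxoglutarate did not share one direction. It left out the prolyl 3-hydroxylases, of which P3H2 fell as given above. It also left out the KDM histone demethylases, among them KDM3A with a log2 fold change of 1.04, and these were not counted as a group. Of the 24 listed genes that could be tested, out of 27, 6 rose, 6 fell and 12 did not pass. This is 25% in each direction, beside 21.7% higher and 15.9% lower over all tested genes. EGLN1, a prolyl hydroxylase that marks HIF for breakdown and is itself a HIF target, rose from 28.8 ± 1.14 to 51.6 ± 2.70 TPM (SD, n = 3 per group), or by 0.82 on the log2 scale (adjusted p = 1.75e-07 in limma), and EGLN3 rose with a log2 fold change of 0.46. These are RNA values, and for PHD2, the protein that EGLN1 encodes, the study reports a lower level after PDBAG1. ALKBH2, a DNA repair demethylase, fell by 0.36 on the log2 scale. P4HTM, a membrane-bound relative of the collagen prolyl 4-hydroxylases, had a log2 fold change of -0.10 and did not pass the test (limma adjusted p = 0.265).

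Hypoxia targets outside collagen metabolism were set beside the 10 genes. Of 22 such genes, all tested and 2 of them (EGLN1 and EGLN3) also in the list just described, 21 rose (95.5%, beside 21.7% of all tested genes), 19 of them by 1.5-fold or more (beside 2.86%), 1 (ADM) fell, and the median log2 fold change was 0.94, near that of P4HA2. NDRG1, ANKRD37 and PFKFB4 led with log2 fold changes of 2.18, 1.64 and 1.58, so that P4HA1 and LOX lay near the middle of this list and PLOD2 below most of it. By the root-mean-square difference of centred log2(TPM + 1) values over the 6 libraries, the genes nearest to LOX were SLC2A3, KDM3A and KDM7A (0.02, 0.03 and 0.03), and those nearest to P4HA1 were BDKRB2, VLDLR and SLC2A3 (0.04, 0.05 and 0.05). Those nearest to P4HA2 were TFPI2, KDM4B and IL6 (0.03, 0.04 and 0.04), those nearest to PLOD2 were RLF, NAV2 and PTPN22 (0.01, 0.02 and 0.02), and those nearest to LOXL2 were ESYT1, FADS1 and KLHL36 (0.01, 0.02 and 0.02). With 2 groups of 3 libraries, this likeness is for the most part a likeness in fold change.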

How the data were processed

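The data were RNA-seq values of 6 MDA-MB-231 libraries, grouped by their titles. In their methods, the authors describe sequencing of mRNA on BGISEQ-500, mapping with HISAT2 to GRCh38.p13 and normalisation to FPKM. The submitters' processing notes name HISAT2 2.0.4, Bowtie2 2.2.5, RSEM 1.2.12 and GRCh38.p12. The values the authors deposited are TPM with 2 decimals, with a nearly equal sum over genes in every library, and the annotation release is not given in the sources used here. Depth is unknown, so precision rests on 3 libraries per group.

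Genes reaching 1 TPM in 3 libraries or more were tested on log2(TPM + 1) in R 4.3.3 with limma 3.58.1 (trend of variance, Benjamini-Hochberg adjustment over all genes tested). Calls were made at an adjusted p under 0.05, with or without a 1.5-fold limit. Shares, sums and ratios were tested by exact permutation of the libraries. The genes and lists were chosen with earlier results of these data known. Genes named were the 10 members, up to 3 called genes with the largest changes per list, and the 3 nearest profiles to members, and further genes of the lists were named after their values were seen. Alternatives were no filter, a filter on every library, a pseudocount of 0.1, a replicate block, median-of-ratios and quantile scaling, a fold limit of 2, and leaving out each library. In simulated data for PDBAG1 against vehicle (12582 genes), 199 of 200 genes given a log2 change of 1 were recovered and 13 unchanged genes were called. The changed genes were drawn from those above a set level of expression. Smaller changes, such as those of LOXL2, LOXL4 and P4HB, were not simulated.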

Additional observations from a re-analysis of the deposited data

How the results depend on the processing

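P4HA1, P4HA2, P4HB, PLOD1, PLOD2, LOX and LOXL2 kept direction and call, and PLOD3 its direction and lack of one, under all 12 alternatives. P4HA1 ranged from 1.03 to 1.10 on the log2 scale, LOX from 1.00 to 1.07, P4HB from 0.15 to 0.21 and PLOD3 from 0.04 to 0.12. The call of LOXL4 was lost in 3 settings, as given above. Of the 10 genes, 8 were called, 3 with a fold limit of 1.5, and 7 to 8 with each library left out. Of the other collagen maturation genes 10 were called, and 6 to 10 with each library left out, the lowest without vehicle replicate 3. Leaving out that library also lowered the calls over all tested genes. They went from 2736 higher and 2000 lower to 2024 higher and 1508 lower. The calls were lowered about as much without vehicle replicate 2 (2106 higher, 1675 lower) and without PDBAG1 replicate 2 (2111 higher, 1500 lower). The cause was not tested. Over all genes 420 were called at 1.5-fold (360 higher, 60 lower), 80 at a fold limit of 2 (73 higher, 7 lower), and 630 with a pseudocount of 0.1 (530 higher, 100 lower). At 1.5-fold 85.7% of calls were higher, against 80.9% under median-of-ratios scaling and 75.3% under quantile normalization. All shares and ratios kept their direction with each library left out and with 0.1 added per gene.

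A replicate block on the label numbers gave 427 genes at 1.5-fold, and 8 of the 10 genes were called and 9 of the other collagen maturation genes. The labels give the numbers no shared origin, and the deviations of libraries with a common number were correlated at -0.21, 0.01 and -0.08.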

Other observations

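P4HB belongs to the protein disulfide isomerases, and most of that family did not pass the test. Of 14 other family genes tested, 1 rose, 3 fell and 10 did not pass, beside 21.7% higher and 15.9% lower over all tested genes. PDIA3, a disulfide isomerase for glycoproteins, rose from 157 ± 4.04 to 175 ± 4.37 TPM (SD, n = 3 per group), with a log2 fold change of 0.16 (adjusted p = 0.00655 in limma), close to the 0.19 of P4HB. TMX2, TXNDC5 and TXNDC12 fell by 0.25, 0.23 and 0.14 on the log2 scale, whereas ERO1A, the oxidase that recharges protein disulfide isomerase and is a known hypoxia target, rose from 77.4 ± 4.83 to 127 ± 8.65 TPM (SD, n = 3 per group), or by 0.71 on the log2 scale (adjusted p = 7.46e-07 in limma). The other oxidases listed did not rise: PRDX4 fell by 0.12 (limma adjusted p = 0.0261) and ERO1B did not pass the test (log2 fold change 0.14, limma adjusted p = 0.269).

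Genes that mark other cell types were mostly low, and some moved with treatment. The 7 fibroblast genes summed to 5.63 to 6.09 TPM in vehicle cells and 6.84 to 7.57 TPM with PDBAG1, of which COL1A1 and PDGFRB made up most, PDGFRB rising with a log2 fold change of 0.31 (adjusted p = 0.0355 in limma), with LUM, PDGFRA and FAP at or near 0. The 3 adipocyte genes summed to 0.81 to 1.16 TPM and 0.96 to 1.58 TPM. The 3 endothelial genes summed to 4.11 to 4.40 TPM and 8.42 to 9.60 TPM, almost all from PECAM1, which rose with a log2 fold change of 0.96, with VWF at 0.09 TPM or less. The 3 leukocyte genes summed to 253 to 267 TPM and 308 to 332 TPM, nearly all CD68, while PTPRC was at 1.41 TPM or less. The 6 luminal and hormone receptor genes summed to 34.7 to 38.1 TPM and 34.3 to 38.9 TPM. Of the 5 mesenchymal breast line genes, VIM, CD44 and MSN rose with log2 fold changes of 0.46, 0.59 and 0.45. AXL and CAV1 fell, with log2 fold changes of -0.26 and -0.30, and over all tested genes 21.7% were higher and 15.9% lower. The part of these genes in the results above was not tested.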
